A study of Mus musculus with 23 samples.

Results

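This section describes how the proximal small intestine of freely fed mice 24 h after doxorubicin injection differed from that of untreated mice at 0 h. No library is labelled as vehicle-injected or as untreated ad libitum at 24 h. The drug, the injection and the elapsed time therefore cannot be told apart. The members are 4 of the 23 libraries of the study, chosen by their labels: ad libitum mice 24 h after doxorubicin (1 wild type, 1 Ddit4-/-) and ad libitum untreated mice at 0 h (1 wild type, 1 Ddit4-/-). Doxorubicin was injected intraperitoneally at 20 mg/kg, all mice are labelled male, and RNA came from whole tissue, so epithelium, muscle, vessels and immune cells were read together. Ddit4 encodes a stress-induced brake on the growth kinase complex mTORC1, and the -/- mice lack it. Strain, age, time of day at harvest and the number of mice behind a library are not given in the sources used here. The 24 h libraries were also set against those of ad libitum mice 12 h and 6 h after the same dose (1 of each genotype at each time), and the 23 libraries in 12 conditions together gave the estimate of the spread.

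Doxorubicin traps topoisomerase II on DNA and so breaks the DNA of dividing cells. In the small intestine those cells sit in the crypts, where stem cells and their progeny divide to replace the short-lived villus epithelium. Broken DNA stabilizes the transcription factor p53, whose targets arrest the cell cycle or start apoptosis, and crypts that lose their dividing cells are later rebuilt by surviving epithelium. A systemic dose also makes animals ill and alters feeding, so hormone, clock and nutrient genes are commonly read alongside the damage response.

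The deposited values are normalized reads, that is reads per gene divided by 1 factor per library. The WT and Ddit4-/- libraries held 15036160 and 23007250 reads in genes at 24 h, against 15524351 and 14527872 in untreated mice, and 1 read was worth 0.705 to 1.13 normalized reads. Wherever 2 values follow a condition, the first is the wild-type and the second the Ddit4-/- library. Each is 1 library, so no condition has replicates of its own genotype, and the p-values rest on how these libraries scatter, which may be technical. With 2 libraries against 2, an exact two-sided permutation test cannot go below p = 0.333, so tests rest on limma, fitted over all libraries. In whole tissue, fewer cells of a type and less RNA per cell cannot be told apart. The gene lists were chosen with earlier results of these data known. Shares of a list set beside all genes therefore describe the list and are not tests. In lists of near-identical genes (Sprr2a, Defa, Cyp2c, Ugt2b and Gsta families, Fth1 and ribosomal protein genes with their pseudogene copies), reads may have been split between copies, so single members are uncertain. The libraries do not record strand, so reads of overlapping antisense genes cannot be separated.

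The labels were compared with the reads first. Ddit4 had 414 and 11.3 normalized reads at 24 h, against 180.4 and 0 in untreated mice, so both knockout libraries were far below their wild-type partners. The 16 Ddit4 reads of the Ddit4-/- library at 24 h are the most in any of the 11 knockout libraries. Reads of Uty, Kdm5d, Eif2s3y and Ddx3y, all on the Y chromosome, summed to 1582 and 2030 reads at 24 h, against 1406 and 0 in untreated mice. The untreated Ddit4-/- library is thus 1 of 3 libraries, all untreated and Ddit4-/-, with at most 5 Y-linked reads despite the male label, while the other 20 had 1088 to 2030. These 3 are called Y-negative below. What else differs in them was not tested. Without them the untreated side is the wild-type library alone. In the Ddit4-/- pair, with 2030 Y-linked reads at 24 h and 0 untreated, a mismatch of sex or of sample cannot be told apart from the treatment. For the proximal label, the duodenal factor Gata4 had 2566 and 3184 normalized reads at 24 h, against 3242 and 2701 in untreated mice. It is 1 of 6 Brunner gland and proximal duodenum markers, which together summed to 4249.8 and 4628 at 24 h, against 4808 and 4889. Of the 4 tested, 3 had a negative change, with a median of -0.35, and 0 passed. Of 3 distal small intestine markers, Fabp6 was at 0 in all 4 libraries. Together the distal markers summed to 118 and 257 at 24 h, against 76.3 and 33.9 in untreated mice, so they were low but not absent. Whether the 4 samples match in region was not tested.

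Cell type markers were summed in each library to show what the tissue samples held. The 25 enterocyte markers summed to 1698143 and 1712618 normalized reads at 24 h, against 1375675 and 1487534 in untreated mice, so enterocyte transcripts were abundant in all 4. Other tissue content differed, in part by single libraries. The 10 smooth muscle markers summed to 3938 and 2549 at 24 h, against 5201 and 7704, and the untreated Ddit4-/- library was highest. B cell markers summed to 42.2 and 47.9 at 24 h, against 465 and 48.5, so the untreated wild-type library alone was high. Red blood cell markers stood at 235 and 226 at 24 h, against 1130.2 and 327, and pancreatic acinar markers at 1179 and 371, against 2151 and 509. The 8 endothelial markers, at 447 and 245 against 190.3 and 68.9, and the 8 fat tissue markers, at 4184 and 4420.3 against 2534 and 2916, summed higher in both 24 h libraries than in both untreated ones. So did the enterocyte markers above and, among others, the goblet, fibroblast, neutrophil and plasma cell markers. The part of these differences in the results below was not tested.

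**Figure D1:**
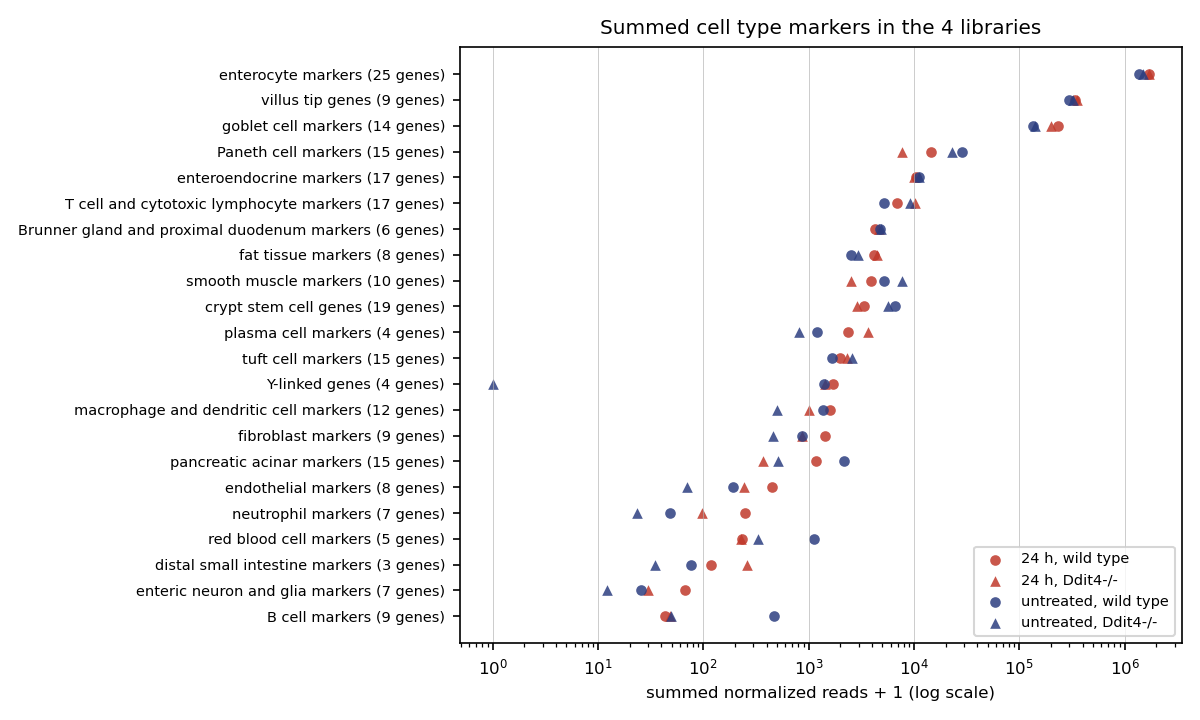
Summed normalized reads (log scale, 1 added) of the marker genes of each cell type in the 4 libraries, red for 24 h after doxorubicin and blue for untreated, circles for wild type and triangles for Ddit4-/-. Enterocyte sums lie close together, the Y-linked sum is 0 in the untreated Ddit4-/- library, and Paneth and crypt stem cell sums lie lower in both 24 h libraries.

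At 24 h, 371 of 11939 genes differed from untreated mice (limma on log2 of the value plus 1, Benjamini-Hochberg adjusted p under 0.05). Of these, 207 were higher, which is 1.73% of the genes tested, and 164 were lower, which is 1.37%. The median change was 1.37 on the log2 scale among higher genes and -1.14 among lower ones, with 156 and 96 genes at least 2-fold changed, while the median of all genes was 0.02. All 371 had the same sign in both genotypes. Both 24 h libraries lay above both untreated ones for 206 of the 207 and below for 164 of the 164, beside 29.6% and 27.9% of all genes tested. The call itself favours that separation. Of the 371 calls, 349 also passed in edgeR and 368 in DESeq2 on the recovered reads. Single libraries decide much of the count, since 8 genes were called without the Ddit4-/- library at 24 h, 40 without the untreated Ddit4-/- library, 133 without the untreated wild-type library and 164 without the wild-type library at 24 h. Without the 3 Y-negative libraries, 17 genes were called, 16 of them among the 371. Of the genes described below as risen or fallen from untreated mice, the ones still called then were Olfm4, Sprr2a3, Per2, Tef, Slc13a2, Slc5a12 and Thbs1, and no other such gene was. The genes called without each of the 4 libraries in turn were 7, namely Olfm4, Sprr2a3, Per2, Slc13a2, Thbs1, B4galt6 and Slc47a1.

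**Figure D2:**
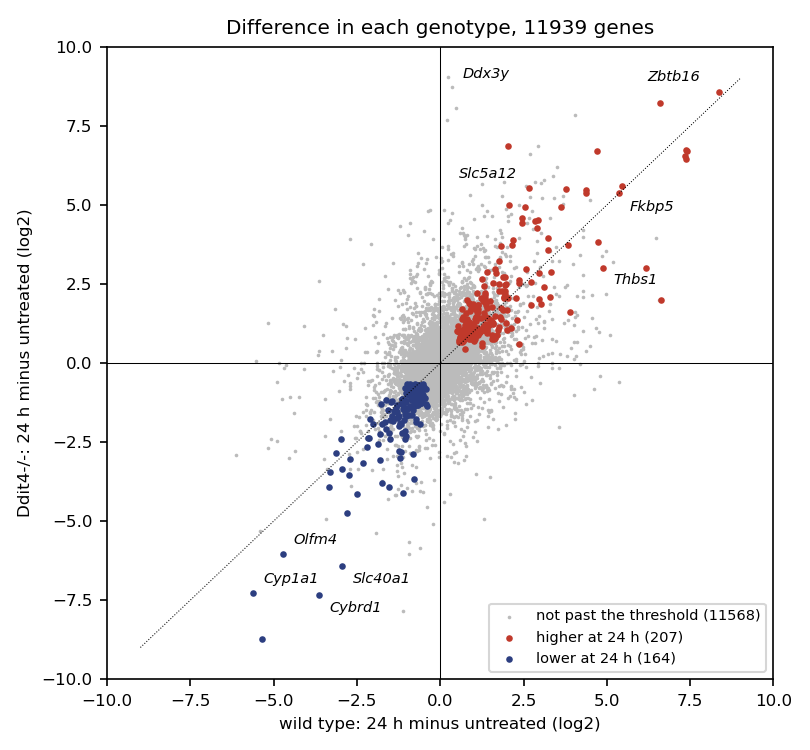
Difference between 24 h after doxorubicin and untreated (log2 of normalized reads plus 1) in wild-type mice on the x axis and in Ddit4-/- mice on the y axis, 1 point per gene for 11939 genes, with equality dotted. The 207 higher genes (red) all lie at the upper right and the 164 lower genes (blue) at the lower left, and the Y-linked Ddx3y lies far from the diagonal.

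Among the called genes that averaged at least 50 normalized reads over all libraries, the 14 largest rises and the 14 largest falls span several functions. The rises held the glucocorticoid targets Fkbp5, Zbtb16 and Mt1, the clock genes Per3 and Dbp, the 4E-BP translation inhibitor Eif4ebp3, the p53 target Phlda3, the Schlafen family gene Slfn4, the matrix glycoprotein gene Thbs1 and the solute carriers Slc5a12 and Slc13a2. Clca3a1, Chst15 and Usp35 completed the 14. The falls held the carcinogen-metabolizing enzyme gene Cyp1a1, the iron genes Cybrd1 and Slc40a1, the crypt gene Olfm4, the small proline-rich gene Sprr2a3, the lipoprotein receptor Scarb1, the calcium channel Itpr1 and the hypoxia target Ankrd37. Tppp, Clca3b, Tmem171, Neu3, Cyp3a44 and Cyp2c55 completed that set.

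**Figure D3:**
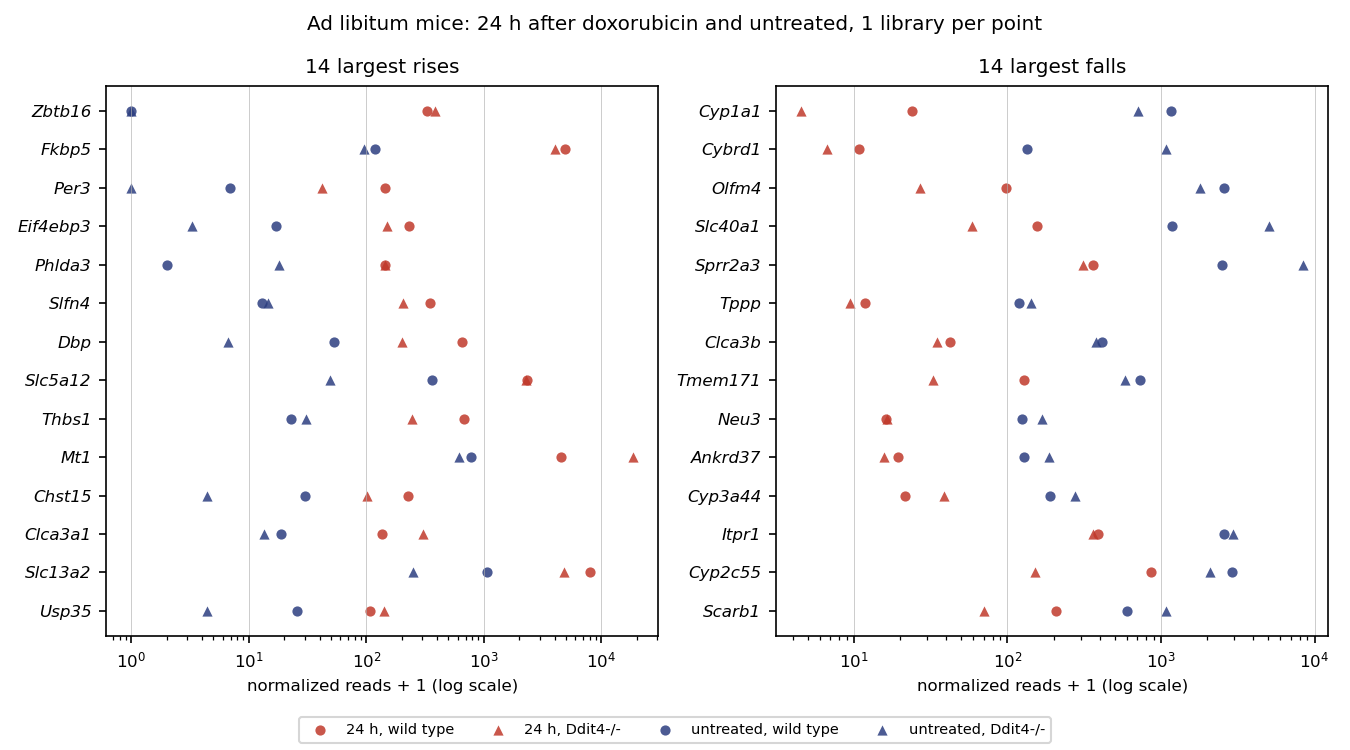
Normalized reads (log scale, 1 added) of the 14 genes with the largest rises and the 14 with the largest falls at 24 h, 1 point per library, red for 24 h and blue for untreated, circles for wild type and triangles for Ddit4-/-. The red and blue points do not overlap for any of the 28 genes.

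Few genes of the damage response passed at 24 h. Of 35 p53 targets, 3 rose and 0 fell, which is 8.57% of the list beside 1.73% of all genes tested, and their median change was 0.52 on the log2 scale (0.63 without the 3 Y-negative libraries, where none was called). Of the 35 targets, 30 had a positive change. For 19, both 24 h libraries lay above both untreated ones (54.3% beside 29.6% of all genes). Phlda3, which blocks the survival kinase Akt at the membrane, had 144 and 143 normalized reads at 24 h, against 0.991 and 16.9 in untreated mice. The 24 h values nearly coincided, and Phlda3 rose by 4.60 ± 1.07 (log2, SE; limma adjusted p = 0.03). Pmaip1, whose protein NOXA neutralizes MCL1 in apoptosis, had 5650.1 and 5265 against 1178 and 1262 and rose by 2.16 ± 0.56 (adjusted p = 0.046). Ccng1, a cyclin induced by p53, had 1925 and 1701 against 924 and 1010.4 and rose by 0.90 ± 0.15 (adjusted p = 0.0053).

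The targets best known for arrest and feedback did not pass. Cdkn1a, the cell cycle inhibitor p21, had 6995 and 5363 normalized reads at 24 h, against 5322 and 4737 in untreated mice (0.29 ± 0.19, adjusted p = 0.43). Mdm2, which degrades p53, had 1127 and 951 against 1058 and 920.0 (0.07 ± 0.22, adjusted p = 0.91). At 12 h Cdkn1a stood at 8619 and 8617 and Mdm2 at 1531 and 1506, above both 24 h values. Of 24 genes for the BCL2 family, death receptors and caspases, 1 rose, Pmaip1, and 1 fell (4.17% each, beside 1.73% and 1.37% of all genes). Among 23 DNA repair and checkpoint genes 1 fell (4.35% beside 1.37%), H2ax, the histone variant phosphorylated at DNA breaks, with 211 and 213 against 656 and 481 (-1.40 ± 0.29, adjusted p = 0.017).

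The crypt gene Olfm4 had one of the largest falls of the comparison. Olfm4 (mm10, chr14:79984081-80023139), a secreted glycoprotein made by crypt stem and progenitor cells, had 96.3 and 26.1 normalized reads at 24 h, against 2565 and 1788 in untreated mice. It fell by 5.38 ± 0.63 on the log2 scale, or 41.7-fold (adjusted p = 0.0014), and its change was -5.15 without the 3 Y-negative libraries (adjusted p = 0.031). Smoc2, another gene of the stem cell signature, had 50.9 and 35.3 against 221 and 122 and fell by 1.93 ± 0.47 (adjusted p = 0.034, and 0.14 without those libraries). Lgr5, the receptor that defines the stem cells, was near the limit of detection at 16.2 and 14.1 against 21.8 and 10.2, and its change of 0.02 ± 1.17 has an error too wide to show a direction. Of 18 crypt stem cell genes tested, 2 fell and 0 rose (11.1% beside 1.37% of all genes), with a median of -0.49.

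Proliferation genes mostly had lower values at 24 h, but none passed singly. Of 26 genes for G2/M and mitosis, 0 passed, 24 had a negative change and 18 lay lower in both 24 h libraries than in both untreated ones (69.2% beside 27.9% of all genes), with a median of -1.02. Top2a, the topoisomerase that doxorubicin poisons, had 174 and 112 normalized reads at 24 h, against 562 and 345 (-1.65 ± 0.53, adjusted p = 0.098). Mki67, a marker of cycling cells, had 185 and 96.6 against 399.5 and 235 (-1.19 ± 0.55, adjusted p = 0.26), and at 12 h it had been lower still, at 98.6 and 63.6. Of 27 S phase and E2F genes 0 passed, with a median of -0.38.

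Markers of Paneth cells, the antimicrobial secretory cells at the crypt base, were read next. Of 14 Paneth markers 0 passed, 12 had a negative change and the median was -1.31. Lyz1, the Paneth lysozyme, had 3421 and 1821 normalized reads at 24 h, against 7898 and 4748 in untreated mice (-1.29 ± 0.48, adjusted p = 0.15), and 896 and 958 at 12 h. Summed Paneth markers stood at 14588 and 7683 at 24 h, against 28719 and 23089. In the other secretory and absorptive lineages few members passed. The goblet list had 1 riser of 14 (7.14% beside 1.73%), Sytl2, a vesicle transport gene, with 421 and 295 against 138 and 175 (1.18 ± 0.29, adjusted p = 0.034), and 0 of 14 enteroendocrine, 0 of 13 tuft and 0 of 25 enterocyte markers passed. Muc2, the main goblet mucin, had 19049 and 13517 against 7791 and 4169 (1.49 ± 0.52, adjusted p = 0.13), and the enterocyte alkaline phosphatase Alpi had 74800.2 and 49177 against 59899 and 69533.

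Glucocorticoid-responsive genes held some of the largest rises of the comparison. Glucocorticoids are adrenal stress hormones that act through a nuclear receptor, and Fkbp5, a co-chaperone of that receptor, is among its best known targets. Fkbp5 (chr17:28399094-28517527) had 4892 and 4018 normalized reads at 24 h, against 117 and 94.8 in untreated mice. It rose 41.7-fold (5.38 ± 0.88, adjusted p = 0.0046, and 5.54 with adjusted p = 0.095 without the 3 Y-negative libraries). Zbtb16, a zinc finger repressor, had 327 and 382 against 0 reads in both untreated libraries. With a floor of 3 reads in each of those, Zbtb16 was at least 111-fold higher. Zbtb16 reached the mean set for testing through the libraries in which it is high, so that difference is given without a test. Mt1, a metal-binding metallothionein, had 4571 and 18716 against 782 and 616 and rose by 3.73 ± 0.95 (adjusted p = 0.042). In all, 5 of 15 genes on the list were called higher and 0 lower (33.3% beside 1.73%). That count includes Zbtb16, which is given without a test, so the share leans in part on it. The other risers were Fkbp5, Mt1, Per1, which is also on the clock list below, and the EGF receptor inhibitor gene Errfi1. The list median was 1.61. None was called without the 3 Y-negative libraries. Other classical targets did not pass, such as Tsc22d3 at 2413 and 2014 against 1647 and 1672 and Sgk1 at 19905 and 6434 against 5846 and 6395.

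Several clock output genes rose as well. In the molecular clock, CLOCK and ARNTL drive Per and Cry genes and the PAR bZIP factors Dbp and Tef, whose mRNAs peak at other hours than that of Arntl. Of 11 genes of the Per and PAR bZIP phase, 6 rose and 0 fell (54.5% beside 1.73%), with a median of 1.69. Per2, a repressor of the clock, had 367 and 192 normalized reads at 24 h, against 36.7 and 44 in untreated mice, and rose by 2.69 ± 0.34 (adjusted p = 0.0014, and 2.78 with adjusted p = 0.031 without the 3 Y-negative libraries). Tef had 1688 and 1283 against 282 and 164 and rose by 2.77 ± 0.39 (adjusted p = 0.0022). Per3 had 143 and 40.9 against 5.95 and 0, and Dbp 649 and 202 against 51.6 and 5.64, so the rises of Per3 (4.88 ± 0.84, adjusted p = 0.0057) and Dbp (4.28 ± 1.09, adjusted p = 0.042) lean on low values in the untreated Ddit4-/- library, and were 3.59 and 2.90 without the 3 Y-negative libraries. Per1 rose by 1.61 ± 0.38 (895 and 463 against 206 and 216) and Cry2 by 1.52 ± 0.36 (311 and 202 against 77.3 and 97.1).

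Arntl, the activator in the opposite phase, had 326 and 459.7 normalized reads at 24 h, against 715 and 846 in untreated mice, a 2.01-fold lower level with an SE of 0.44 on the log2 scale (adjusted p = 0.23). Of 6 genes of the Arntl phase 0 passed, with a median of -0.64. The hour of harvest and food intake after the injection are not given in the sources used here, so the times after doxorubicin and the hours of the day cannot be told apart.

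Since 6 clock genes rose together, their RefSeq promoters (GRCm38.p6, the 250 bases before each start) were searched for CACGTG, the perfect E-box bound by CLOCK and ARNTL, which reads the same on both strands. A promoter was listed for 5 of the 6, and the motif was found for 2, Per1 and Tef, and not for Cry2, Dbp or Per3. Of all 27025 genes with a listed promoter, 6.86% held it in at least 1 of their listed starts. For Per1 it lies in 1 of 2 listed starts and for Tef in both. The windows are shown 5′ to 3′ with the motif in capitals, Per1 from chr11:69098699-69098948 (plus strand) and Tef from chr15:81802423-81802672 (plus strand).
Per1: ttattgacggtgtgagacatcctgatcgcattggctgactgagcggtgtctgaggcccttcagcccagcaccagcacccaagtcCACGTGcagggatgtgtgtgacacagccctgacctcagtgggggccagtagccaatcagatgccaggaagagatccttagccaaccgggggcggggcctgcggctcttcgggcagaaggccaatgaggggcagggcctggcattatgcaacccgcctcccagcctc
Tef: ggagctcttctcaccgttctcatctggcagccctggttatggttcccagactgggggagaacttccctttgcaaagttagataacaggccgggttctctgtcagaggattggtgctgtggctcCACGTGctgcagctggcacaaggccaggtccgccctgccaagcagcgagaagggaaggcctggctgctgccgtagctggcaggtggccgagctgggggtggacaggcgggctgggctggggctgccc
The motif begins 166 bases before the start of Per1 and 127 before that of Tef. Per1, which carries it, and Dbp, which does not within this window, both rose.

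Genes of iron uptake and export fell. The proximal intestine takes up dietary iron through the reductase Cybrd1 and exports it to blood through ferroportin, Slc40a1, both known targets of the hypoxia factor HIF-2. Cybrd1 had 9.74 and 5.64 normalized reads at 24 h, against 134 and 1084 in untreated mice, and fell by 5.50 ± 1.23 (adjusted p = 0.026). Slc40a1 (chr1:45908068-45926523) had 154 and 57.8 against 1186 and 5065 and fell by 4.68 ± 0.80 (adjusted p = 0.0057). The untreated libraries did not overlap the 24 h ones, but the Ddit4-/- one was several times above the wild-type one for both genes. Without the 3 Y-negative libraries the changes were -3.52 and -3.54 and neither passed (adjusted p = 0.45 and 0.15). The transferrin receptor Tfrc, which imports iron from blood, fell by 1.31 ± 0.29 (673 and 391 against 1652 and 983). The ferritin genes Fth1 (99066 and 65535 against 164951 and 237169) and Ftl1 (3741 and 4047 against 5351 and 6399) fell by 1.30 and 0.59. In all, 5 of 10 iron handling genes fell and 0 rose (beside 1.37% of all genes), with a median of -0.56, and none was called without those libraries.

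Hypoxia-responsive genes went both ways. Of 15 tested, 4 fell (26.7% beside 1.37% of all genes) and 2 rose (13.3% beside 1.73%), and none was called without the 3 Y-negative libraries. Those that fell were Ankrd37 (18.4 and 14.8 against 128 and 185, -3.14 ± 0.73), the pyruvate dehydrogenase kinase gene Pdk1 (175 and 177 against 456 and 513, -1.45 ± 0.24), and the glycolytic genes Pgk1 (1273 and 1311 against 2105 and 3249) and Ldha (26776 and 34367 against 49675 and 75583, -1.01 ± 0.21). Those that rose were the vascular growth factor gene Vegfa (2281 and 1743 against 832 and 752, 1.33 ± 0.28) and Ndrg1 (4426 and 5082 against 1765 and 946, 1.88 ± 0.48), a stress-responsive gene. The list median was -0.08.

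The promoters of the 4 hypoxia-responsive genes that fell were searched on both strands for ACGTG, the core of the hypoxia response element, which every CACGTG also contains. It was found for 3, Ankrd37, Ldha and Pgk1, and not for Pdk1, where 18.5% of all genes with a listed promoter held it in at least 1 start. Ldha has the motif in 1 of its 2 listed starts. The 2 windows shown are those of the strongest faller and of the most abundant, Ankrd37 from chr8:45999851-46000100 (minus strand) and Ldha from chr7:46845554-46845803 (plus strand), with the motif or its complement in capitals.
Ankrd37: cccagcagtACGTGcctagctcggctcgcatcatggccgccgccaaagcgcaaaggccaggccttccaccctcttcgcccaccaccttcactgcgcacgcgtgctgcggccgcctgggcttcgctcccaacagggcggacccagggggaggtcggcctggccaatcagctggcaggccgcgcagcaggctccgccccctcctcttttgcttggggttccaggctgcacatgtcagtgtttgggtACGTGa
Ldha: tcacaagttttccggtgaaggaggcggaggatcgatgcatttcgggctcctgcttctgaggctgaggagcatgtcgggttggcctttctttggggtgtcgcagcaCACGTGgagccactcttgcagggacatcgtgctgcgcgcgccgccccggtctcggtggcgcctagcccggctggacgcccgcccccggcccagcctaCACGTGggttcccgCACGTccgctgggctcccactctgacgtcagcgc
Ankrd37 holds the motif 2 times in this window and Ldha 5 times, counting each strand of an overlapping pair. These are matches of letters, and binding was not measured.

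Among detoxification genes, falls outnumbered rises. Cyp1a1 (chr9:57687928-57703824), the classical target of the aryl hydrocarbon receptor, which senses food and microbial compounds, had 22.7 and 3.53 normalized reads at 24 h, against 1167 and 704 in untreated mice. It fell by 6.45 ± 1.06, or 87.6-fold (adjusted p = 0.0048, and -6.23 with adjusted p = 0.13 without the 3 Y-negative libraries). Of 25 xenobiotic metabolism and efflux genes 6 fell, among them Cyp2c55 (858 and 150.2 against 2894 and 2079, -2.77 ± 0.60), Ces1f and Ugt2b34, which is 24% beside 1.37%. The aldo-keto reductase gene Akr1b7 rose, with 5835 and 5252 against 1561 and 1249.7 (1.99 ± 0.37, adjusted p = 0.01). Of 20 genes in the NRF2 and glutathione list, 3 fell (15% beside 1.37%), the glutathione transferases Gsta1 (991 and 489 against 3489 and 4153, -2.45 ± 0.38) and Gsta4 and the quinone reductase Nqo1 (255 and 179 against 812 and 662, -1.77 ± 0.33), and the median was -0.73.

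Solute carriers moved in both directions. Slc13a2 (chr11:78397087-78422217), which carries citrate and succinate, had 7975 and 4850.4 normalized reads at 24 h, against 1073 and 247 in untreated mice. It rose 12-fold (3.59 ± 0.46, adjusted p = 0.0014, and 2.54 with adjusted p = 0.033 without the 3 Y-negative libraries). Slc5a12, a lactate and monocarboxylate carrier, had 2319 and 2280.3 against 363 and 48.5 and rose by 4.10 ± 0.59 (adjusted p = 0.0022, and 2.62 with adjusted p = 0.031 without them). For both genes the lowest value was that of the untreated Ddit4-/- library. Slc6a19, the main apical carrier of neutral amino acids, rose by 1.28 ± 0.19 (27971 and 19727 against 10533 and 8939.7). The glutamate carrier Slc1a1 (36.8 and 33.8 against 171 and 181) and the monocarboxylate carrier Slc16a1 (1384 and 1534 against 3079 and 3408) fell, so 3 of 19 transporters rose (15.8% beside 1.73%) and 2 fell (10.5% beside 1.37%).

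In lipid handling, Dgat2, which makes triglyceride, had 22717 and 22233 normalized reads at 24 h, against 6212 and 6988 in untreated mice, and rose by 1.77 ± 0.31 (adjusted p = 0.0063). Creb3l3, a liver and gut transcription factor of lipid metabolism that sits on both the villus tip and the PPAR-alpha lists, rose 2.17-fold (17989 and 21381 against 9052 and 9049). Of 14 fatty acid synthesis genes 2 fell (14.3% beside 1.37%), the malic enzyme gene Me1 (134 and 63.5 against 383 and 339) and the elongase gene Elovl6 (1567 and 546 against 2787 and 4002). Scarb1, a receptor for high density lipoprotein, fell by 2.73 ± 0.63 (205 and 69.8 against 596 and 1069). Of 24 cholesterol synthesis genes 1 rose and 0 fell (4.17% beside 1.73%), and their median change was -0.01. Eif4ebp3, an inhibitor of translation, had 232 and 148 against 15.9 and 2.26 and rose by 4.65 ± 0.70 (adjusted p = 0.003), the 1 gene of 15 mTORC1 brakes and 4E-BP genes that passed (6.67% beside 1.73%).

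Mucosal defence genes diverged. Reg3b, a secreted lectin that acts on bacteria, had 147104 and 195527 normalized reads at 24 h, against 14626 and 26359.6 in untreated mice, and rose by 3.11 ± 0.74 (adjusted p = 0.032, and 3.09 with adjusted p = 0.28 without the 3 Y-negative libraries). Its neighbour Reg3g had 19628 and 13797 against 4899 and 13872 and did not pass. Reg1 (26895 and 8645 against 61161 and 61291), the scavenger-like Dmbt1 (1959 and 1462 against 7128 and 8638) and Ccl25, the chemokine that draws lymphocytes to the small intestine (6532 and 5393 against 10820.0 and 10749), fell by 2.01, 2.21 and 0.86. Small proline-rich genes encode envelope and wound-response proteins, and 3 of 4 tested fell (75% beside 1.37%). Those 3 are the near-identical copies Sprr2a1, Sprr2a2 and Sprr2a3, between which reads may be split, so they may not be separate signals. Sprr2a3 had 360.4 and 311 against 2505 and 8426 and fell by 3.77 ± 0.46 (adjusted p = 0.0014, and -3.06 with adjusted p = 0.037 without those libraries).

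Some interferon-stimulated genes rose. Of 31 tested, 6 rose and 0 fell (19.4% beside 1.73%), and 28 had a positive change with a median of 0.78. None was called without the 3 Y-negative libraries. Rtp4 had 1294 and 1696 normalized reads at 24 h, against 524 and 819.6 in untreated mice, and rose by 1.18 ± 0.19 (adjusted p = 0.0047). Irf7, a transcription factor of the interferon response, had 5077 and 5868 against 2301 and 3164, and the antiviral gene Oasl2 had 4369.9 and 6584 against 2051 and 3071, rises of 1.02 and 1.10. Oas1a, Oas2 and Stat2 rose too. Slfn4, a Schlafen gene known from myeloid cells, rose by 4.28 ± 0.81 (345 and 204 against 11.9 and 13.5). Of 9 MHC class II genes 0 passed, and Cd74, the chaperone of that pathway, had 2446 and 37069 against 3052 and 6515. The class II median was -0.56 between the wild-type libraries and 1.67 between the Ddit4-/- ones. Among the cytokine and chemokine genes, Ccl2, which recruits monocytes, had 162 and 93.8 against 0 reads in both untreated libraries, at least 40.3-fold higher with the same floor. Ccl2 reached the mean set for testing through the libraries in which it is high, so that difference is given without a test. The 12 macrophage and dendritic cell markers summed to 1585 and 1003 at 24 h, against 1358 and 498 in untreated mice, and the neutrophil markers to 251 and 97.3 against 47.6 and 22.6. The part of such cells in these rises was not tested. Thbs1, thrombospondin of the matrix, had 677 and 245 against 21.8 and 29.4 and rose by 3.96 ± 0.51 (adjusted p = 0.0014, and 4.52 with adjusted p = 0.031 without the 3 Y-negative libraries).

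Of 20 genes of regenerating epithelium, 1 rose (5% beside 1.73% of all genes). Ly6a, the surface antigen Sca-1 of repairing crypts, had 259 and 336 normalized reads at 24 h, against 46.6 and 14.7 in untreated mice, and rose by 3.44 ± 0.85 (adjusted p = 0.037, and 2.53 with adjusted p = 0.45 without the 3 Y-negative libraries). Ly6a is also expressed by endothelium and lymphocytes, and endothelial sums were higher at 24 h, as given above. Clu, a marker of revival stem cells, ran in opposite directions in the 2 genotypes, with 258 and 711 against 592 and 33.9, and did not pass (1.58 ± 1.06, adjusted p = 0.45). The difference between genotypes, 5.55, did not pass either (adjusted p = 1.0). Its change was -0.44 without the 3 Y-negative libraries.

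Genes of mitochondria and protein turnover had small negative changes across whole lists. All 31 nuclear oxidative phosphorylation genes had a negative change, with a median of -0.65, and 29 were lower in both 24 h libraries than in both untreated ones (93.5% beside 27.9%). Without the 3 Y-negative libraries the median was -0.45, with 30 negative and none called. Of the 31, 6 passed (19.4% beside 1.37%). Uqcrfs1, the Rieske subunit of complex III, had 5624 and 6180.2 normalized reads at 24 h, against 10432 and 13742 in untreated mice (-1.02 ± 0.18, adjusted p = 0.0075). Sdhc of complex II (5888 and 5363 against 8499 and 10772) and Uqcrc2 of complex III (4007 and 4164 against 6403 and 6925) fell by 0.77 and 0.70. All 27 proteasome subunit genes were negative too, with a median of -0.39, and 2 passed (7.41% beside 1.37%), Psma1 and Psma4. Psmb10, a subunit of the immunoproteasome, fell by 1.15 ± 0.17 (2586 and 3169 against 5622 and 7166). Of 16 heat shock chaperones 2 fell (12.5% beside 1.37%), Hspd1 and Hsp90aa1. Of 43 ribosomal protein genes 0 passed, with a median of -0.50 (-0.27 without the 3 Y-negative libraries).

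**Figure D4:**
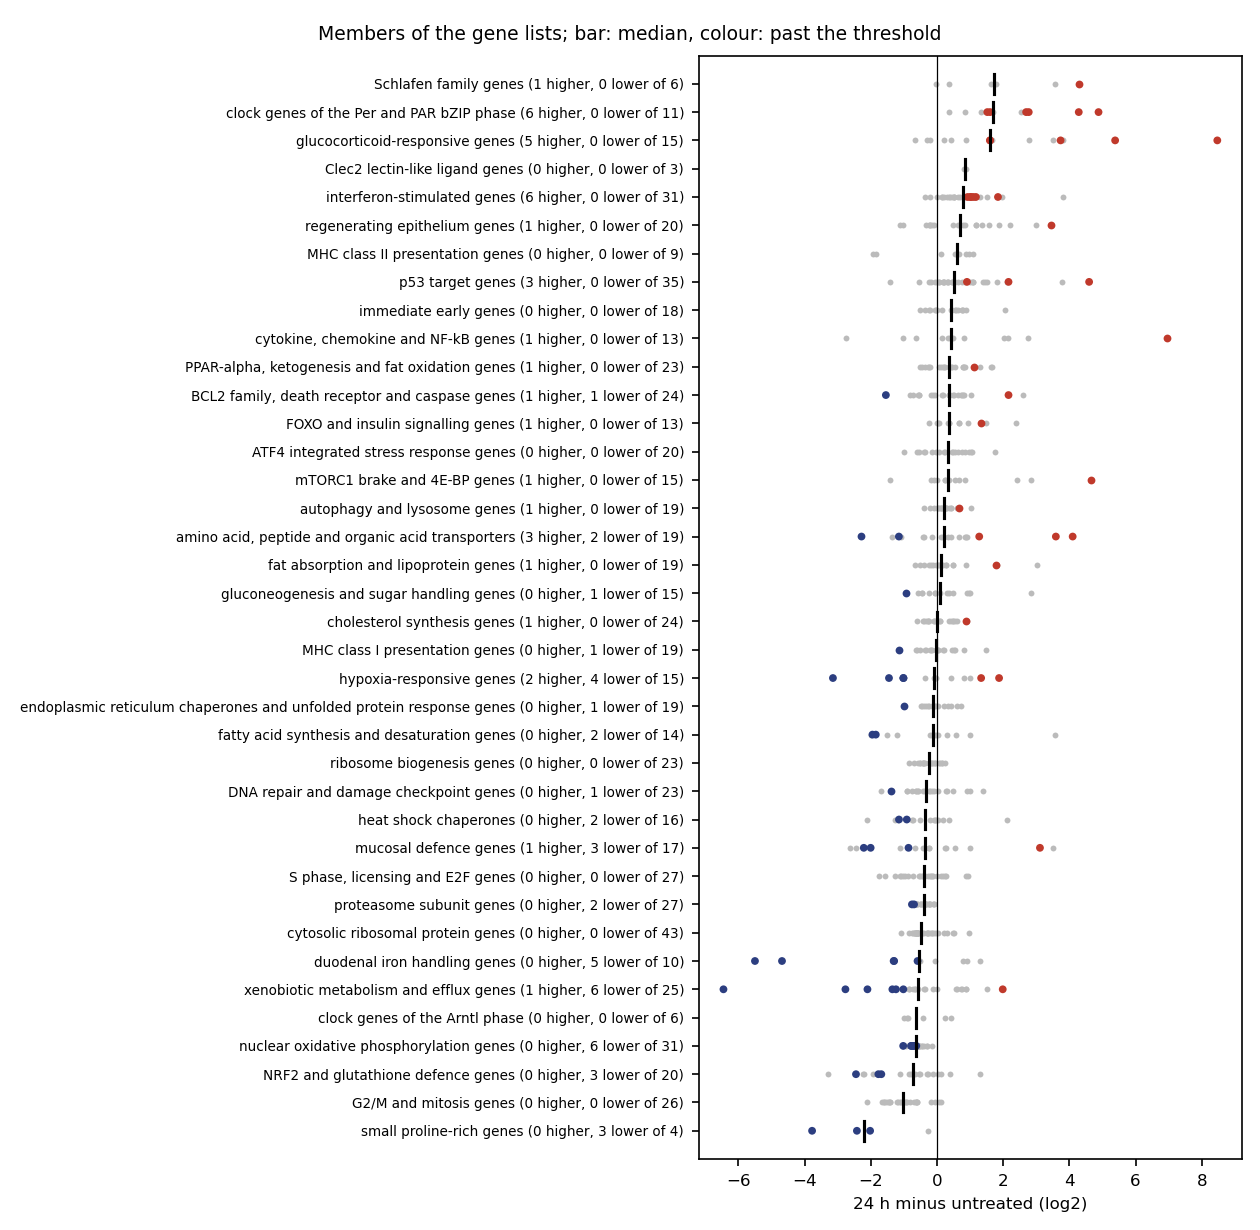
Change between 24 h after doxorubicin and untreated (log2, x axis) of the tested members of each gene list, 1 point per gene, red and blue where the gene passed as higher or lower and grey where it did not, with the median as a bar. The clock list has 6 higher of 11 and the iron list 5 lower of 10, while the oxidative phosphorylation points all lie below 0 within a narrow range.

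Among non-epithelial lists, 2 of 9 smooth muscle markers fell (22.2% beside 1.37%), Myh11 (120.1 and 53.6 against 209 and 693) and Actg2 (34.6 and 15.5 against 76.3 and 284). Their changes of -2.23 and -2.61 were -0.97 and -1.33 without the 3 Y-negative libraries, and neither passed there. The median of the 9 was -0.60 between the wild-type libraries and -3.48 between the Ddit4-/- ones. No member passed among the 15 T cell, 4 B cell, 11 macrophage, 8 fibroblast, 6 endothelial, 14 acinar and 7 fat tissue markers tested. Cd3e, of T cells, had 290.0 and 333 normalized reads at 24 h, against 181 and 324.

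Values at 24 h were next set against those at 12 h, a comparison in which untreated libraries enter only through the spread, to ask what was still moving. Here 7 genes were higher at 24 h (0.0586% of the genes tested) and 8 lower (0.067%). The secreted ribonuclease gene Rnase4 had 1062 and 1279 normalized reads at 24 h, against 275 and 199 at 12 h, and rose by 2.31 ± 0.25 (adjusted p = 0.00051), beside 1069 and 983 in untreated mice. The E2F family gene E2f2, a regulator of S phase entry, had 118 and 147 against 23.7 and 28 and rose by 2.31 ± 0.43, while untreated mice had 340.0 and 449. Pecr, a peroxisomal reductase, rose by 1.77 ± 0.29.

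Cyp1a1 fell between 12 and 24 h, with 22.7 and 3.53 normalized reads at 24 h, against 1610.3 and 1442 at 12 h (-7.20 ± 1.06, adjusted p = 0.013). Its lowest values in ad libitum mice were thus those at 24 h. Cyp3a44, a drug-metabolizing enzyme gene, fell by 3.40 ± 0.49 (20.6 and 37.4 against 131 and 692). Gclc, the rate-limiting enzyme of glutathione synthesis, fell by 2.37 ± 0.44 (591 and 345 against 2419 and 2268). Untreated mice had 677 and 444 for Gclc, so its 24 h values lay nearer to those than to the 12 h values. Rnase4 was 1 of the 2 genes still called without the 3 Y-negative libraries.

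The genes with large changes from untreated mice took different courses over the day. Olfm4 had 362 and 182 normalized reads at 6 h and 65.7 and 22.4 at 12 h, close to its 24 h values of 96.3 and 26.1, and its 24 h minus 12 h change was 0.38 ± 0.63 (adjusted p = 0.89). Fkbp5 had 5247 and 315 at 6 h and 5200.2 and 4132 at 12 h, so the Ddit4-/- library at 6 h stood apart from the other 5. Per2 had 499.6 and 453 at 6 h, 870.2 and 943 at 12 h and 367 and 192 at 24 h (-1.77 ± 0.34 from 12 h, adjusted p = 0.054). Thbs1 had 90.9 and 46.4 at 6 h and 134 and 43 at 12 h, both below its 24 h values (2.41 ± 0.51 from 12 h, adjusted p = 0.076). Between 24 h and 6 h 0 genes passed in limma (0.0%) and 0 in edgeR, with 850 at an unadjusted p under 0.05, and 46 passed in DESeq2.

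**Figure D5:**
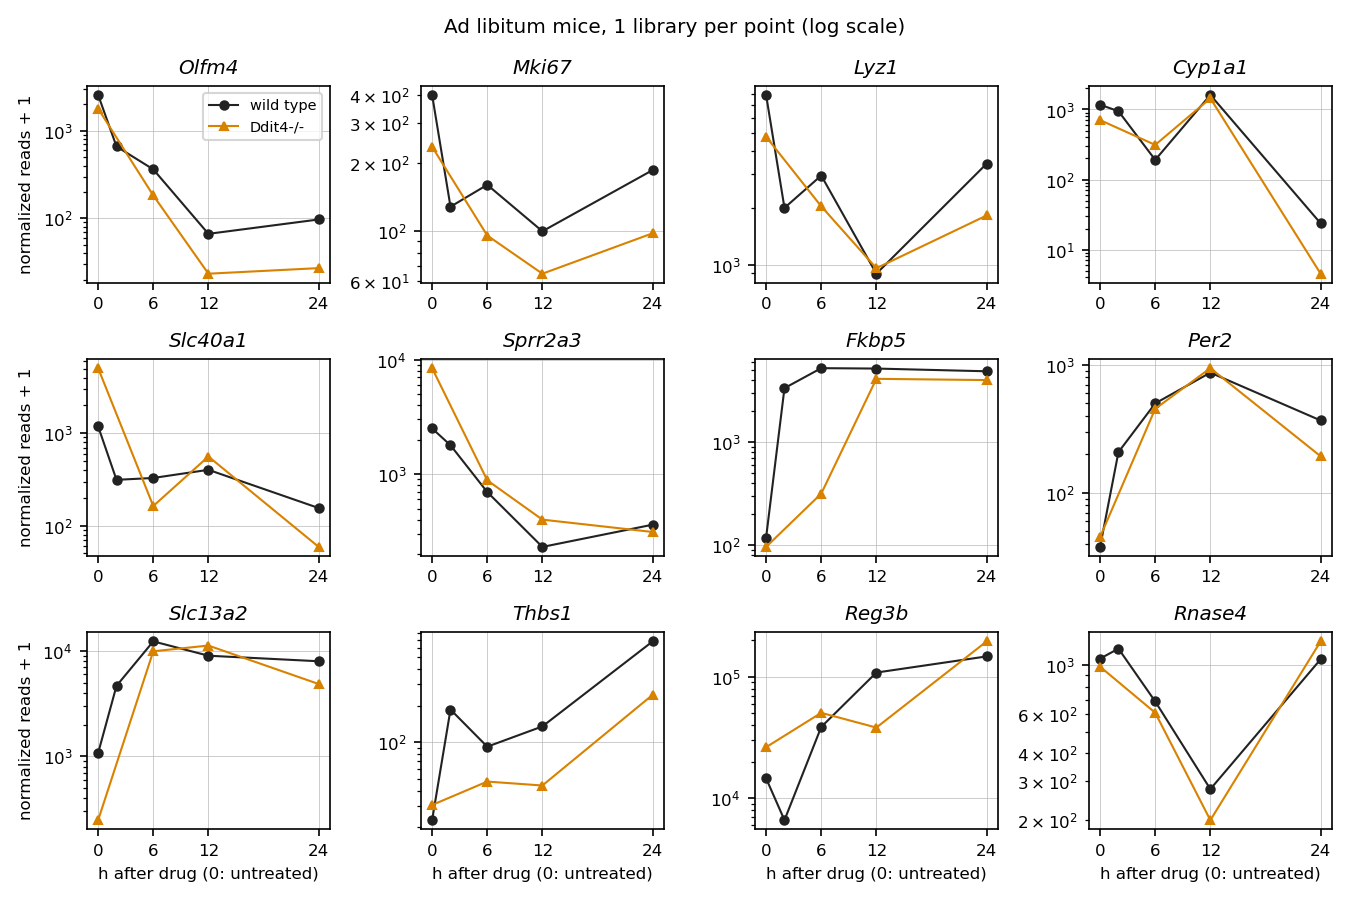
Normalized reads (log scale, 1 added) of 12 genes in ad libitum mice against hours after doxorubicin, with untreated mice at 0, 1 library per point, black for wild type and orange for Ddit4-/- (the 2 h point is wild type only). Olfm4 and Sprr2a3 stay low from 12 to 24 h, Cyp1a1 is lowest at 24 h, Rnase4 is lowest at 12 h, and Thbs1 and Reg3b have their highest values at 24 h.

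Whether the 24 h response differed between Ddit4-/- and wild-type mice was tested as the difference of the 2 changes. In limma 0 genes passed (0.0% of those tested, with 179 at an unadjusted p under 0.05), 0 passed in edgeR and 4 in DESeq2, namely Acta2, Chd2, Des and Lars2. The median standard error of that difference was 0.64 on the log2 scale, so only large differences could have passed. Cd74 had a difference of 2.83 (adjusted p = 1.0), and the Y-linked Ddx3y, which had 0 reads in the untreated Ddit4-/- library, one of 8.38 (adjusted p = 1.0). Olfm4 was lower at 24 h in both genotypes, and its difference was -1.32 (adjusted p = 1.0). These values do not show that the genotypes responded alike.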

How the data were processed

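RNA from whole proximal small intestine was read by poly-A, non-directional sequencing, per the labels' protocols. The authors deposited 1 table of normalized counts (16259 genes, 23 libraries), that is a signal of reads divided by 1 size factor per library and not log transformed. Trim Galore, STAR, DESeq2 and mm10 are named without versions or roles in the submitters' processing notes, and the counter, annotation and filters are not given in the sources used here. Within a column every value is a whole multiple of 1 step, from which reads were taken back (100.0% of values within 0.01 of a whole read), 11418115 to 23428519 per library, with a median of 15524351. Floors in reads cover counting error only. The ± values are limma standard errors and rest on the scatter between libraries in the fit.

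The main test was limma 3.58.1 in R 4.3.3 on log2(value + 1) with a variance trend, two-sided, for 11939 genes averaging at least 10 normalized reads. It fitted 12 conditions plus genotype over 23 libraries (10 residual degrees of freedom) and p-values were adjusted over the whole table by Benjamini-Hochberg, with calls under 0.05. Fold changes are on the log2(value + 1) scale, which understates changes of low genes. The difference between genotypes left 8 residual degrees of freedom. edgeR 4.0.16 (quasi-likelihood) and DESeq2 1.42.0 on the recovered reads, other scalings, filters and pseudocounts, and subsets of libraries were alternatives. The fits were tested on simulated data.

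Replicate 1 is the wild-type and replicate 2 the Ddit4-/- library of a condition, so the genotype term is also the replicate block. The members and the gene lists were chosen with earlier results of these data known. Named genes were the 14 largest rises and falls among genes averaging 50 normalized reads or more, up to 3 passing members of each list by p (otherwise 2 members), and 26 genes always shown. Further passing members were named after their values were seen, among them Cry2, Errfi1, Fth1, Ftl1, Pgk1, Ndrg1, Oas1a, Oas2, Stat2, Slc1a1, Slc16a1, Ces1f and Ugt2b34, as were Tsc22d3 and Sgk1, which did not pass. Positions are from GENCODE vM21 on mm10 and promoters from RefSeq on GRCm38.p6. Some results are not reported here.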

Additional observations from a re-analysis of the deposited data

How the results depend on the processing

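Every one of the 371 called genes kept its direction under each alternative that tested it, but their number moved. Against 371 calls between 24 h and untreated mice, DESeq2 gave 860, array weights 1537, the ad libitum libraries alone 1067, the 4 libraries alone 1247, leaving out the 4 libraries whose title and drug label conflict 566, and no variance trend 164. Without the 3 Y-negative libraries there were 17, and leaving out 1 library at a time gave 8 to 509. The fit without the genotype term, that is with no replicate block, gave 278 calls. Against 15 calls between 24 h and 12 h, a pseudocount of 5 gave 23, quantile normalization 9, edgeR 9, DESeq2 231, array weights 479, no variance trend 5, the ad libitum libraries alone 154, the set without conflicting titles 62 and the set without the Y-negative libraries 2, with 2 to 30 when 1 library was left out. The split of calls moved as well. Between 24 h and untreated mice 55.8% of calls were higher in the main test, 82.4% without the Y-negative libraries and 43.3% to 75.0% when 1 library was left out (43.3% without the wild-type library at 24 h). Between 24 h and 12 h 46.7% were higher in the main test, 73.3% with no filter on low values, all 5 with no variance trend, and from 3 of 20 (without the wild-type library at 24 h) to 2 of 2 when 1 library was left out. Against 0 calls between 24 h and 6 h, a pseudocount of 5 gave 2 (Chil3 and Serpina3n), DESeq2 46 and array weights 22, with 0 to 1 when 1 library was left out. Against 0 calls for the difference between genotypes, DESeq2 gave 4 and the ad libitum libraries alone 44, with 0 in each leave-one-out fit. That difference could not be fitted without a library of its own 4 or without the Y-negative libraries. The causes of these moves were not tested, except that subsets hold fewer samples.

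Some genes that did not pass changed sign. Lgr5 (0.02) was -0.00 with a pseudocount of 5, -0.40 with quantile normalization, -0.08 in edgeR, -0.09 in DESeq2, -0.76 without the Y-negative libraries and -0.64 to 0.67 when 1 library was left out. Without the Y-negative libraries, Alpi was 0.04 and Clu -0.44. With quantile normalization Il1b was -0.18 and Slc10a2 -0.03. When 1 library was left out, Alpi ran between -0.45 and 0.27, Clu between -0.55 and 3.70, Dclk1 between -0.01 and 0.49, Gata4 between -0.24 and 0.14, Il1b between -0.67 and 1.52, Rnase4 between -0.11 and 0.48 and Slc10a2 between -0.11 and 0.43. Each condition has 1 library per genotype, and depth limits genes near the floor of 3 reads.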

Other observations

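Several genes chosen after their values were seen, and so given without a test, were at or near 0 in the untreated libraries. Ccl7, a monocyte chemokine, had 167 and 106 normalized reads at 24 h (wild type and Ddit4-/-), against 0 in both untreated libraries, which is at least 42.9-fold higher with a floor of 3 reads per library. Ly6c2 had 168 and 103 against 0 in both (at least 42.6-fold), and Chil3, a chitinase-like protein, 167 and 86.7 against 0 in both (at least 39.8-fold). Ms4a6d had 129 and 103 against 3.97 and 0, and the interferon-inducible gene Ifi204 had 122 and 93.8 against 4.96 and 1.13. At 12 h Ccl7 stood at 0 and 11.2 and Chil3 at 0 and 4.67. Serpina3n, a protease inhibitor of the acute phase, had 286 and 299 against 1.98 and 0. None of these 6 was called without the 3 Y-negative libraries. On the macrophage list, 0 of 11 members passed, and the summed level of its 12 markers was 1585 and 1003 at 24 h, against 1358 and 498 in untreated mice.

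Mitochondrial genes outside the oxidative phosphorylation list, also chosen after their values were seen, had mostly small negative changes. All 76 mitochondrial ribosomal protein genes had a negative change, with a median of -0.63, as did all 22 Timm and Tomm import genes (median -0.72), while the median of all genes was 0.02. Without the 3 Y-negative libraries these medians were -0.47 and -0.59. Prdx1, which breaks down peroxide, had 15668 and 13764 normalized reads at 24 h, against 24980.1 and 34667 in untreated mice, and Gpx1, glutathione peroxidase, had 2854 and 2517 against 6636 and 9373. Mdm4, a partner of MDM2 in restraining p53, had 729 and 741 at 24 h, against 335 and 225 (1.42 ± 0.23 on the log2 scale, and 1.29 with adjusted p = 0.14 in limma without those libraries). The glycolytic gene Pfkl had 397 and 592 against 1094 and 1352 (-1.32 ± 0.22, and -1.36 with adjusted p = 0.071 without them).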
